A study of Mus musculus with 6 samples.

Results

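C2C12 myotubes exposed to 50 µg/mL of an ethanolic extract of sugarcane tops (STEE50-M) were compared with untreated myotubes (Ctrl-M). The comparison takes 4 of the 6 arrays of the study, the 2 STEE50-M arrays and the 2 Ctrl-M arrays, as the labels name them. C2C12 is a mouse myoblast line from skeletal muscle, and all cells had been in differentiation medium for 6 days. The treated cells then received the extract in serum-free Opti-MEM for 6 h. For the controls the labels name no vehicle, no medium change and no time after differentiation, while the extract stock was made in aqueous ethanol, so the extract and its solvent, medium or added hours cannot be told apart. The other 2 arrays hold cells given 30 µg/mL for 6 h (STEE30-M). They entered the fit and are used below only to set the higher dose beside the lower one. The methods of the study call the 2 samples of a group biological.

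When serum is lowered, C2C12 myoblasts leave the cell cycle, express the myogenic regulators *Myod1* and *Myog*, fuse through the membrane proteins myomaker and myomixer, and build sarcomeres and the calcium release apparatus. Reserve cells that do not fuse stay among the myotubes, so a bulk measurement holds both. Plant polyphenols such as caffeoylquinic acids and flavone glycosides are known to occur in sugarcane tops. Several signalling systems that muscle cells use are followed below: cyclic AMP, which phosphodiesterases degrade and protein kinase A reads; Wnt and TGF-beta ligands; and the coactivator PGC-1α, encoded by *Ppargc1a*, which raises transcription of mitochondrial genes.

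The arrays gave log2 signals for 22206 probe sets, and array medians lay between 5.70 and 5.77. The background level was 5.32, which the mean of a probe set over all arrays had to exceed. It is the 95th percentile of 1448 odorant, vomeronasal and taste receptor probe sets. All 8 myotube markers were above background, and their log2 signals averaged 14.78 and 14.92 in the controls and 14.92 and 15.57 in STEE50-M. Of 6 markers of myoblasts or reserve cells 5 were above background, and *Pax7*, the marker of satellite cells, was not. None of 5 adipocyte and none of 4 endothelial markers were above it. Of 4 fibroblast markers *Dcn* and *Lum* were above it, with log2 differences of 0.02 (standard error 0.21) and 0.74 (standard error 0.35), neither past the thresholds given below, and the part of *Lum* in other results was not tested. Of 5 macrophage markers only *Cd68* was above it, and *Ptprc*, which marks all white blood cells, lay between 3.77 and 4.17 in every array. Fewer cells of a type and less RNA per cell cannot be told apart in such bulk samples.

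In STEE50-M, 1121 of 22206 probe sets (5.05%) passed the thresholds of the study against Ctrl-M, an unadjusted limma p under 0.05 with a linear fold of at least 1.2. Every probe set with such a p also met the fold limit. The deposited arrays span a wider log2 scale than the authors' averages, so folds here are not on the scale of those averages. Equal counts across the range of p would put 1110.3 in that bin, and the 20 bins of the histogram of p held 1042 to 1192 probe sets. After Benjamini-Hochberg adjustment in limma, 0 probe sets had a p under 0.05, in a comparison where 1121 had an unadjusted p under 0.05. With the brightest probe set kept for each symbol, 498 of 21154 genes (2.35%) were higher and 559 (2.64%) were lower. These genes are named "higher" or "lower" below in that sense only, and each list is to be read against these shares. The median log2 difference of all genes was -0.01, and the median standard error of a difference was 0.24. Both STEE50-M arrays lay above both Ctrl-M arrays for 16.1% of genes and below both for 18.5%. Above background, 223 genes were higher and 198 lower, and among the dimmer genes 275 were higher and 361 lower. Of the 1057 called genes, 1053 had both STEE50-M arrays on 1 side of both Ctrl-M arrays. Leaving out 1 array cannot turn the direction of such a gene, so a direction kept in that way is no sign of stability. Of 154 called genes named or listed below, 65 to 81 still passed when a Ctrl-M or STEE50-M array was left out, in fits with fewer arrays, and 0 changed direction.

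**Figure D1:**
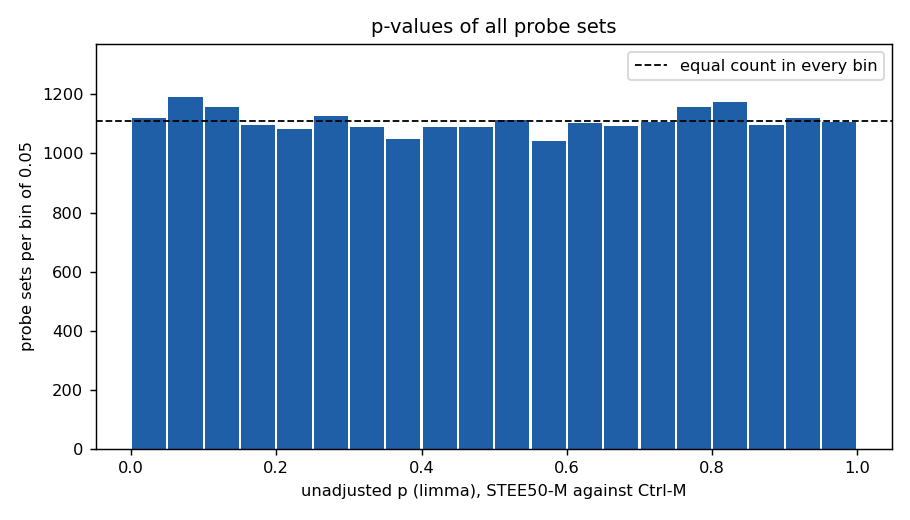
Number of probe sets (vertical axis) in each bin of 0.05 of the unadjusted limma p (horizontal axis) for STEE50-M against Ctrl-M; the dashed line marks equal counts. The first bin holds 1121 probe sets and the line stands at 1110.3.

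**Figure D2:**
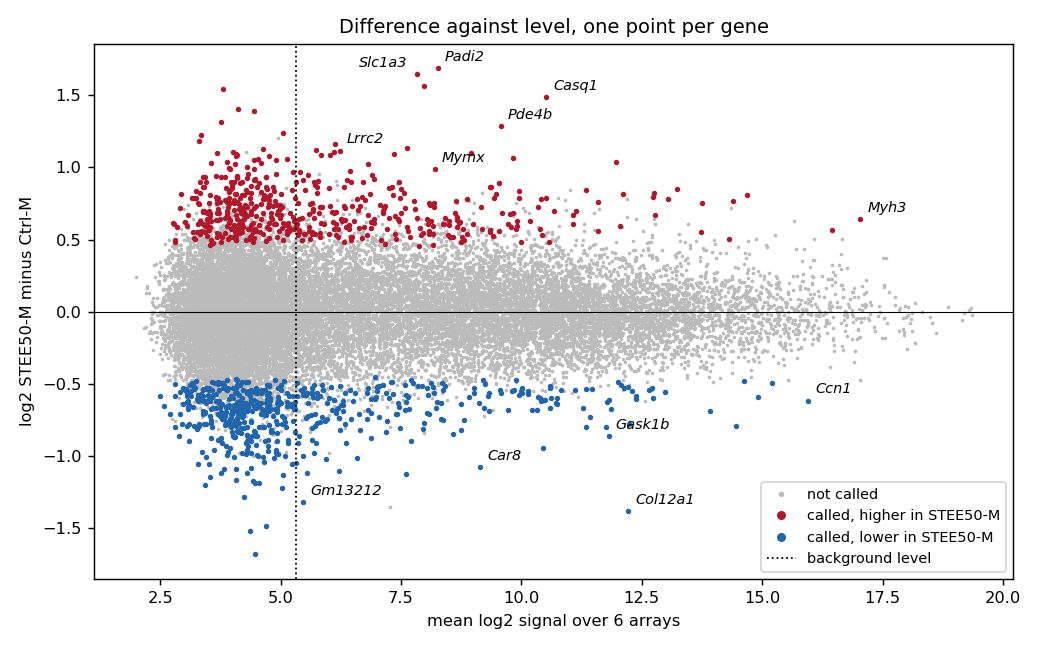
Log2 difference STEE50-M minus Ctrl-M (vertical axis) against the mean log2 signal over the 6 arrays (horizontal axis), with a point for each of 21154 genes and called genes in red (higher) and blue (lower). *Padi2*, *Slc1a3*, *Casq1* and *Pde4b* stand out upward and *Col12a1* and *Car8* downward among genes right of the dotted background level.

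Among genes above background whose STEE50-M and Ctrl-M arrays did not overlap, the 15 higher with the largest moderated t differed by 0.85 to 1.69 on the log2 scale, or 1.80-fold to 3.22-fold. All 15 had an adjusted p of 0.952 in limma, and they were ranked on this very contrast, so their values describe the top of the list. *Pde4b*, which encodes a phosphodiesterase that degrades cyclic AMP, led it. Its log2 signal was 8.96 and 9.08 in the Ctrl-M arrays, 9.54 and 9.23 in the STEE30-M arrays, and 10.50 and 10.11 in the STEE50-M arrays. The 3 groups did not overlap, and the lower dose lay between the other groups, a place that ranking on those groups favours. The difference between STEE50-M and Ctrl-M was 1.29 with a standard error of 0.23. *Pde4b* lies at chr4:102087332-102607275 of GRCm38. *Slc1a3* (chr15:8634124-8710807), which encodes a glutamate transporter, was at 7.11 and 7.50 in Ctrl-M, 7.19 and 7.24 in STEE30-M, and 9.39 and 8.51 in STEE50-M. Here the lower dose stayed within the range of the controls, and the STEE50-M arrays differed from each other by more than the controls did. *Padi2* (chr4:140906336-140952586), which encodes an enzyme that converts protein arginine to citrulline, had the highest fold, at 7.52 and 7.47 in Ctrl-M, 7.82 and 8.40 in STEE30-M, and 8.73 and 9.63 in STEE50-M. The log2 difference was 1.65 (standard error 0.30) for *Slc1a3* and 1.69 (standard error 0.32) for *Padi2*.

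The 300-base windows around the first RefSeq start listed for each of these 3 genes are shown because they had the largest moderated t of all higher genes. RefSeq sequence of GRCm38.p6 covers 250 bases before and 50 after the start, read 5′ to 3′ on the strand of the gene. Capitals mark TGACG, the core of the cyclic AMP response element, on either strand, so that a match on the opposite strand reads CGTCA. *Pde4b* has 4 such windows in the table and the first is given (chr4:102421305-102421604, plus strand), which lies inside the gene, downstream of its annotated 5′ end; *Slc1a3* (chr15:8710758-8711057, minus strand) and *Padi2* (chr4:140906110-140906409, plus strand) have 1 each.
Pde4b: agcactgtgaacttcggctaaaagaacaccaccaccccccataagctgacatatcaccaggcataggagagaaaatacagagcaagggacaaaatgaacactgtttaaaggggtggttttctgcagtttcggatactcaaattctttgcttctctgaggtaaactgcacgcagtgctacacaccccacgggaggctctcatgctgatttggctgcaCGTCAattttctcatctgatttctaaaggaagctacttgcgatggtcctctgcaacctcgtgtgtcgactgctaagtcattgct
Slc1a3: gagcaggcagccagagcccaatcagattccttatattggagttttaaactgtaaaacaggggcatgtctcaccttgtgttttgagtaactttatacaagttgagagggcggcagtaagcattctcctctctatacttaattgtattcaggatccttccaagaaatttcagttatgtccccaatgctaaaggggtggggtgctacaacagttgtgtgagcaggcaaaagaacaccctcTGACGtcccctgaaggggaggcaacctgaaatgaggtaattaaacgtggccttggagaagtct
Padi2: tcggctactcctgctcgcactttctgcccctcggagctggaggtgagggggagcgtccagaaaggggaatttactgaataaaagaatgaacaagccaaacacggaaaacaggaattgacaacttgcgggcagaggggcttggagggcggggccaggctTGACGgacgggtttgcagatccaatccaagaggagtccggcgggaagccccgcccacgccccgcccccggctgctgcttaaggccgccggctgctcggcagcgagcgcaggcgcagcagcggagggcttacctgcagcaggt
Each of the 3 windows held 1 match. Of the 15 higher genes, 9 had a window in the table and 5 of them held TGACG (*Pde4b*, *Slc1a3*, *Padi2*, *Thnsl1* and *Notch3*). Of the 15 lower genes described below, 11 had a window and 0 held it. Over the first windows of 27025 genes the share was 20.9%. These are counts of letters in few windows and say nothing of what binds there.

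*Gm7325*, which RefSeq lists as *Mymx*, encodes myomixer, the small membrane protein that completes myoblast fusion (chr17:45600961-45602196). It was at 7.78 and 7.98 in Ctrl-M, 7.77 and 7.96 in STEE30-M, and 8.75 and 8.98 in STEE50-M. The STEE30-M arrays matched the controls almost value for value, and both STEE50-M arrays stood above all others, by 0.99 on the log2 scale (standard error 0.22). *Tmem8c*, the array's name for the partner protein myomaker, was at 16.41 and 16.54 in Ctrl-M and 16.53 and 17.22 in STEE50-M, and its difference of 0.40 (standard error 0.27) did not pass the test. *Notch3*, a receptor that muscle progenitors use, was at 6.57 and 6.95 in Ctrl-M and 7.96 and 7.75 in STEE50-M. *Adgrg1*, an adhesion receptor coupled to G proteins, was at 5.45 and 5.67 against 6.46 and 6.98. The Ctrl-M and STEE50-M arrays of both genes kept apart, as the choice of genes required, and *Adgrg1* lay close to background in Ctrl-M.

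A further 7 genes of this group were 1.80-fold to 2.20-fold higher. *Lrrc2*, which encodes a leucine-rich repeat protein, was at 5.56 and 5.71 in Ctrl-M and 6.44 and 7.06 in STEE50-M. *Ank3*, which encodes an ankyrin that anchors membrane proteins to spectrin, was at 5.85 and 5.93 against 6.69 and 7.04. For both *Lrrc2* and *Ank3* the STEE30-M arrays also lay above both controls. *Cd24a*, which encodes a glycoprotein of the cell surface, differed by 0.91, *Thnsl1*, a threonine synthase-like gene, by 1.14, and *Plekha7*, a gene of the adherens junction, by 0.85. *Gramd4* differed by 0.87 and *Olfr1044*, an odorant receptor gene, by 0.86. Odorant receptors form a large family of similar genes, so the probes of *Olfr1044* may read several of them. *Olfr1044* is also among the 1448 probe sets that set the background level. Some of those lie above it by definition, so its place there is no sign of expression. *Thnsl1* did not pass in the unmoderated test, and the log2 difference of *Gramd4* shrank to 0.64 without Ctrl-M replicate 1. The 15 genes were chosen for a large t on these arrays. Passing in refits of the same arrays is therefore favoured beforehand and is no separate support.

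**Figure D3:**
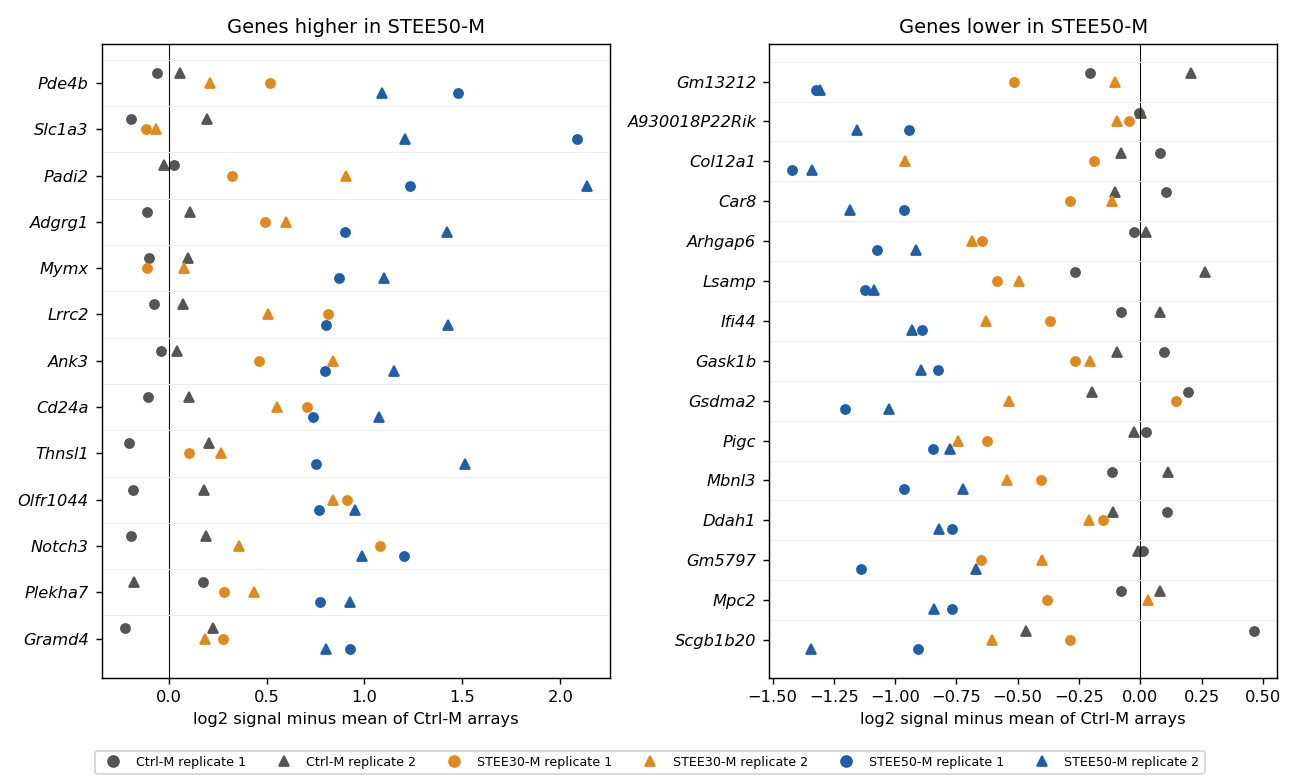
Log2 signal of each array minus the mean of the Ctrl-M arrays (horizontal axis) for 13 of the 15 higher genes and the 15 lower genes with the largest moderated t; circles are replicate 1 and triangles replicate 2, in grey for Ctrl-M, orange for STEE30-M and blue for STEE50-M. The blue points are on 1 side of the grey ones in every row, which the choice of genes fixes, and the orange points of *Slc1a3* and *Mymx* stay at the controls.

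The 15 lower genes with the largest moderated t differed by 0.80 to 1.38 on the log2 scale, or 1.74-fold to 2.60-fold, again with an adjusted p of 0.952 each in limma. *Col12a1*, which encodes a collagen on the surface of collagen fibrils (chr9:79598987-79721141), had the highest fold. It was at 12.95 and 12.79 in Ctrl-M, 12.68 and 11.91 in STEE30-M, and 11.45 and 11.53 in STEE50-M. The STEE50-M arrays lay close together and below all others, for a log2 difference of -1.38 (standard error 0.27). *Car8* (chr4:8141493-8239041), a carbonic anhydrase relative known to bind the IP3 receptor of the calcium store, was at 9.68 and 9.47 in Ctrl-M, 9.29 and 9.46 in STEE30-M, and 8.61 and 8.39 in STEE50-M. *Fam198b*, now *Gask1b*, which encodes a Golgi protein, was at 12.27 and 12.08 in Ctrl-M, 11.91 and 11.97 in STEE30-M, and 11.35 and 11.28 in STEE50-M. *Ddah1*, whose enzyme degrades an inhibitor of nitric oxide synthases, was at 12.19 and 11.97 against 11.31 and 11.26. All 4 of these genes were well above background, and in each the lower dose lay between the controls and the higher dose on average. The same held for all 15 lower genes and for 12 of the 15 higher ones. Ranking on the difference between STEE50-M and Ctrl-M favours such a place for any other group, so it is no measure of a dose response.

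*Mpc2* encodes a subunit of the mitochondrial pyruvate carrier and was at 7.73 and 7.89 in Ctrl-M and 7.04 and 6.97 in STEE50-M. *Mbnl3*, a muscleblind splicing factor that is known to keep myoblasts from differentiating, was at 8.90 and 9.13 against 8.05 and 8.29. *Pigc*, a gene of GPI anchor synthesis, was at 8.47 and 8.42 in Ctrl-M, 7.82 and 7.70 in STEE30-M, and 7.60 and 7.67 in STEE50-M. For *Pigc* most of the distance was already there at the lower dose. *Lsamp*, a neural adhesion gene, was at 6.49 and 7.02 against 5.63 and 5.67, *Arhgap6*, which encodes a GTPase-activating protein, at 6.00 and 6.05 against 4.95 and 5.11, and *Ifi44*, an interferon-induced gene, at 6.13 and 6.29 against 5.32 and 5.28. The other 5 were *Gm13212* (log2 difference -1.32), *A930018P22Rik* (-1.05), the gasdermin gene *Gsdma2* (-1.12), *Gm5797* (-0.91) and the secretoglobin gene *Scgb1b20* (-1.13). In *Arhgap6*, *Ifi44*, *Gm13212*, *A930018P22Rik*, *Gsdma2* and *Gm5797* the STEE50-M arrays were at or under background, so these differences are measured against background. *Scgb1b20* did not pass in the unmoderated test. Its log2 difference shrank to -0.66 without Ctrl-M replicate 1 and to -0.90 without STEE50-M replicate 2. For the other 14, passing in refits is no separate support, as for the higher genes.

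Genes of the contractile apparatus mostly had a positive mean difference, in an amount that hung on STEE50-M replicate 2. Both STEE50-M arrays lay above both controls for 13 of 49 sarcomere genes and below both for 4, beside 16.1% and 18.5% of all genes. Among 49 genes of the sarcomere 4 passed as higher and 0 as lower, 40 had a positive difference, and the median was 0.37. *Myh3*, the embryonic myosin heavy chain, was at 16.64 and 16.88 in Ctrl-M and 17.13 and 17.67 in STEE50-M. *Lmod3*, which encodes a nucleator of thin filaments, was at 10.93 and 11.14 against 11.35 and 12.41. *Tcap*, the titin cap of the Z disc, was at 5.64 and 5.92 against 6.53 and 6.50, and *Myh2*, an adult fast myosin, at 7.07 and 7.24 against 7.53 and 7.85. In STEE50-M replicate 2, 40 of the 49 genes had their highest signal of the 6 arrays, and in STEE50-M replicate 1 it was 2. The mean over the list was 11.44 and 11.61 in Ctrl-M, 11.36 and 11.75 in STEE30-M, and 11.51 and 12.18 in STEE50-M. Replicate 2 was thus above replicate 1 in each group, most in STEE50-M. With the replicate number as a block in the fit, 6 genes were higher and 0 lower. Leaving out STEE50-M replicate 2 put the median at -0.02, with 0 genes higher and 1 lower. Leaving out STEE50-M replicate 1 put it at 0.76, with 22 higher. Without Ctrl-M replicate 1 the median was 0.30 and 0 passed.

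The same array stood apart for the calcium release apparatus. The list mean was 10.42 and 10.46 in Ctrl-M, 10.38 and 10.59 in STEE30-M, and 10.44 and 10.87 in STEE50-M, again with replicate 2 above replicate 1. Of 30 genes of excitation-contraction coupling, 4 were higher and 0 lower, with a median of 0.14. *Casq1*, the calcium-binding protein calsequestrin of the sarcoplasmic reticulum (chromosome 1), was at 9.58 and 10.10 in Ctrl-M, 9.89 and 10.82 in STEE30-M, and 10.75 and 11.90 in STEE50-M. Its log2 difference of 1.49 (standard error 0.42) came with a wide spread in both treated groups, and it did not pass without STEE50-M replicate 2 (log2 difference 0.91). *Camk2a*, a calmodulin-dependent kinase, was at 12.87 and 12.69 in Ctrl-M and 13.36 and 13.90 in STEE50-M. *Cacnb1*, a subunit of the dihydropyridine receptor, was at 12.43 and 12.25 against 12.91 and 13.36. *Stac3*, an adaptor of that receptor, was at 9.64 and 9.84 against 10.25 and 10.20, with the STEE50-M arrays close together. The list had 0 higher and 1 lower gene without STEE50-M replicate 2 and 10 higher without STEE50-M replicate 1. At the neuromuscular synapse, 2 of 19 genes were higher and 0 lower (median 0.35). They were *Musk*, the receptor kinase that clusters acetylcholine receptors, at 14.05 and 14.06 against 14.59 and 14.53, and *Chrng*, the fetal receptor subunit, at 12.70 and 12.82 against 13.10 and 13.98. Without STEE50-M replicate 2 the median of this list was 0.10 and 1 gene was higher.

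The RefSeq windows of *Lrrc2* (chr9:110951295-110951594, plus strand) and *Casq1* (chr1:172219846-172220145, minus strand) are given because muscle regulatory factors such as MyoD are known to bind E-boxes. Capitals mark CANNTG, which is found on both strands at once.
Lrrc2: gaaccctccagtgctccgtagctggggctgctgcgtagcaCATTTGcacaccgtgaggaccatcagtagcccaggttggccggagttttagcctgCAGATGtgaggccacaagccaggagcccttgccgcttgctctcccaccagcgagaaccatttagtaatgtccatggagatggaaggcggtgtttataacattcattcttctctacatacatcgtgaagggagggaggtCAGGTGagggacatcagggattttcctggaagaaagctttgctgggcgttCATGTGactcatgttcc
Casq1: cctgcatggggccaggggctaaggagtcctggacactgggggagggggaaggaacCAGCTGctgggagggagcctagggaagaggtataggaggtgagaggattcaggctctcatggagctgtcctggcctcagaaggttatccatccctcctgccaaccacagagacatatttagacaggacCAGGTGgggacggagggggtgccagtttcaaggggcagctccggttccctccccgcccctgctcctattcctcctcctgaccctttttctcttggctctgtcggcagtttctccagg
*Lrrc2* held 4 matches and *Casq1* held 2. Of the first windows of all 27025 genes, 72.1% held at least 1, so a match is common, and 7 of the 9 windows of higher genes and 8 of the 11 of lower genes held it.

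Of 18 myogenic regulators, 2 were higher, *Gm7325* and *Mef2d*, and 1 was lower, *Myocd*, which was not above background. *Mef2d*, a transcription factor of muscle genes, was at 13.56 and 13.23 in Ctrl-M, 13.36 and 14.10 in STEE30-M, and 14.24 and 14.06 in STEE50-M. *Myod1* was at 8.84 and 8.88 in Ctrl-M and 9.36 and 9.31 in STEE50-M and *Myog*, which acts later, at 14.59 and 14.55 against 14.70 and 15.24, and neither passed the test. Genes of the cell cycle held opposite values in the same array. Of 34, 0 were higher and 1 was lower, *Ccne1*, the cyclin of entry into S phase, at 9.43 and 9.60 against 8.97 and 8.90. The median was -0.20, 24 of the 34 had their lowest signal in STEE50-M replicate 2, and without that array the median was 0.04. Replication-dependent histones split the STEE50-M arrays further. None of 52 passed, 40 had their highest signal in STEE50-M replicate 1, and 45 had their lowest in STEE50-M replicate 2. *Hist1h2ac*, for example, was at 11.78 and 11.81 in Ctrl-M and 12.53 and 11.62 in STEE50-M. The part of this difference between the STEE50-M arrays in the muscle gene values was not tested.

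**Figure D4:**
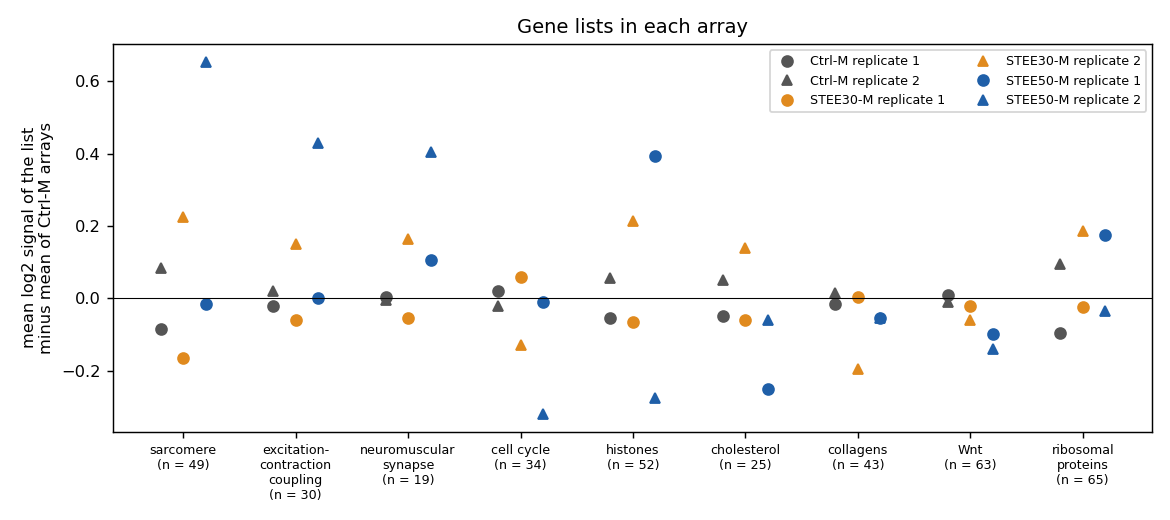
Mean log2 signal of a gene list in each array minus the mean of the Ctrl-M arrays (vertical axis) for 9 lists (horizontal axis, n is the number of genes), with symbols by group and replicate. STEE50-M replicate 2 is the highest array for the sarcomere, coupling and synapse lists and the lowest for cell cycle and histone genes, while STEE50-M replicate 1 lies near the controls for the first and is the highest for histones.

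Beside *Pde4b*, another cyclic nucleotide phosphodiesterase above background was higher. *Pde3b*, whose enzyme degrades cyclic AMP downstream of insulin, was at 9.06 and 9.13 in Ctrl-M, 9.50 and 9.09 in STEE30-M, and 9.77 and 9.99 in STEE50-M. The STEE50-M and Ctrl-M arrays did not overlap, as for 1053 of the 1057 called genes. The log2 difference was 0.79 (standard error 0.23, adjusted p = 0.952 in limma). Of 23 phosphodiesterases 2 were higher and 1 was lower, *Pde1b*, which was not above background, and the median was 0.08. No gene passed among 35 adenylyl cyclases, protein kinase A subunits and CREB family members (median 0.04). *Creb1*, the cyclic AMP response element binding protein, was at 10.42 and 10.32 against 10.64 and 10.63, and *Crem*, its relative, at 6.27 and 6.39 against 5.84 and 6.23. None of 32 immediate early genes passed either (median 0.15). Nearest were *Nr4a2*, an orphan receptor gene, at 9.89 and 10.13 against 10.78 and 10.34, and *Sik1*, a salt-inducible kinase gene, at 12.41 and 12.42 against 12.70 and 13.35. Both STEE50-M arrays lay above both controls for 12 of the 32, including *Nr4a2* and *Sik1*, beside 16.1% of all genes. They lay below both for 2 of the 32, beside 18.5%.

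Wnt pathway genes had 1 higher and 7 lower of 63, beside 2.64% lower of all genes, with a median of -0.06. *Lrp6*, the coreceptor of canonical Wnt ligands, was the higher gene, at 9.85 and 10.20 in Ctrl-M and 10.62 and 10.88 in STEE50-M. The receptor *Fzd6* was lower, at 10.44 and 10.26 against 9.57 and 10.00. The ligand *Wnt10a* was at 6.99 and 7.08 against 6.15 and 6.56, and the secreted antagonist *Sfrp4* at 5.67 and 6.36 against 5.36 and 5.06. The STEE50-M signals of *Sfrp4* were close to or under background, so its difference is measured against background. *Axin2*, a target and inhibitor of the canonical pathway, was at 6.33 and 6.11 in Ctrl-M, 5.66 and 5.59 in STEE30-M, and 5.67 and 5.75 in STEE50-M. *Nkd2*, another inhibitor, was at 6.03 and 5.86 against 5.48 and 5.36. The remaining lower genes, *Wnt3a* and *Wnt5b*, were not above background. The lower genes thus held ligands, a receptor, antagonists and a target. Leaving out a Ctrl-M array gave 3 lower genes (replicate 1) or 2 (replicate 2), and leaving out a STEE50-M array gave 3 (replicate 1) or 4 (replicate 2).

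In the TGF-beta family 1 gene was higher and 4 were lower of 49, these 5 all above background, with a median of 0.02. The type I receptor *Tgfbr1* was lower, at 10.19 and 10.36 in Ctrl-M, 10.12 and 9.88 in STEE30-M, and 9.78 and 9.67 in STEE50-M. *Inhba*, which encodes the subunit of activin A, was at 12.69 and 12.49 against 12.11 and 11.97. *Cyr61* and *Ctgf*, now *Ccn1* and *Ccn2*, encode matrix-associated proteins that are known targets of TGF-beta and of YAP. *Cyr61* was at 16.34 and 16.13 in Ctrl-M, 16.08 and 15.93 in STEE30-M, and 15.69 and 15.55 in STEE50-M, a log2 difference of -0.62 (standard error 0.21). *Ctgf* was at 10.42 in both controls, 9.90 and 10.35 in STEE30-M, and 9.85 in both STEE50-M arrays. The higher gene was *Tgif2*, a repressor of the pathway, at 8.62 and 8.46 in Ctrl-M, 9.10 and 9.52 in STEE30-M, and 9.42 and 8.88 in STEE50-M. For these 5 genes the STEE50-M and Ctrl-M arrays did not overlap, as for 1053 of the 1057 called genes. The count of lower genes was 0 when Ctrl-M replicate 1 or STEE50-M replicate 2 was left out, 2 when Ctrl-M replicate 2 was, and 4 when STEE50-M replicate 1 was.

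**Figure D5:**
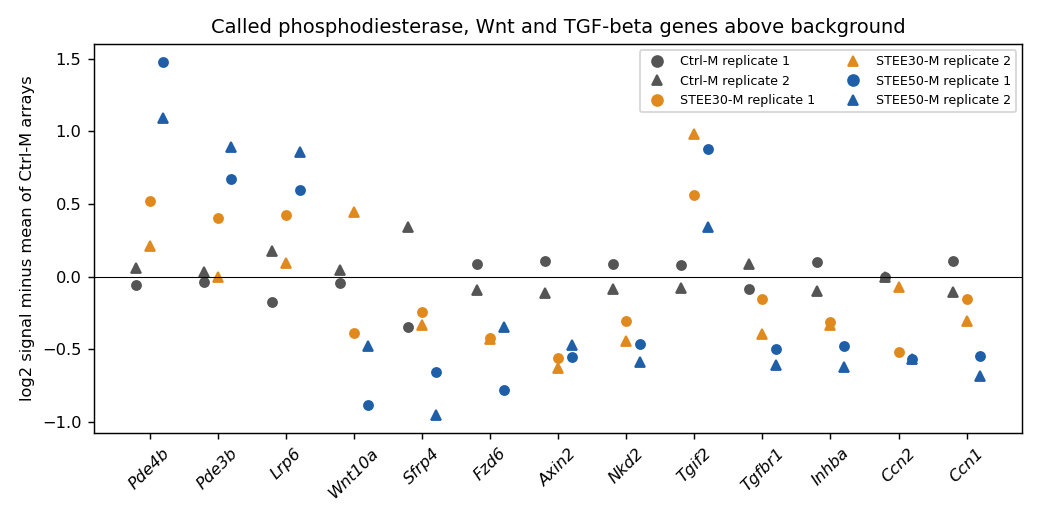
Log2 signal of each array minus the mean of the Ctrl-M arrays (vertical axis) for the called phosphodiesterase, Wnt and TGF-beta genes above background (horizontal axis); circles are replicate 1 and triangles replicate 2, in grey for Ctrl-M, orange for STEE30-M and blue for STEE50-M. *Pde4b*, *Pde3b*, *Lrp6* and *Tgif2* lie above the controls in both STEE50-M arrays and the other 9 genes below them. Nearly all called genes stand apart in this way. Background is judged on the mean over all arrays, and *Sfrp4* was close to or under it in STEE50-M.

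Matrix genes had few calls. Of 43 collagens only *Col12a1* passed (median -0.08), and of 41 matrix glycoproteins and crosslinking enzymes only *Tnc*, the gene of tenascin C, at 15.27 and 15.15 in Ctrl-M and 14.40 and 14.84 in STEE50-M. *Lox*, the enzyme that crosslinks collagen, was at 16.64 and 16.48 against 16.08 and 16.28 and did not pass. Integrins and laminins had 1 higher and 1 lower of 36. *Itgb6*, the subunit of an integrin that activates latent TGF-beta, was at 9.58 and 9.50 in Ctrl-M, 9.74 and 9.71 in STEE30-M, and 10.24 and 10.21 in STEE50-M. *Itga11*, a collagen receptor subunit, was at 7.63 and 8.22 against 7.28 and 7.21. Among axon guidance genes, *Sema6a* and *Ephb3* were higher and *Sema3d* and *Slit2* lower, of 64. *Sema3d*, a secreted semaphorin, was at 13.03 and 13.15 in Ctrl-M and 12.39 and 12.59 in STEE50-M.

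The study asked about mitochondrial function, and most of its nuclear genes did not pass. None of 37 complex I genes passed (median -0.02), nor any of 17 ATP synthase genes (median 0.00) or of 75 mitochondrial ribosomal protein genes (median 0.00). The mean over complex I was 11.47 and 11.63 in Ctrl-M and 11.67 and 11.46 in STEE50-M. For ATP synthase it was 13.66 and 13.74 against 13.77 and 13.57, so in both lists STEE50-M replicate 2 lay below replicate 1. *Ppargc1a*, which the study followed by qPCR, was at 6.20 and 6.43 in Ctrl-M, 6.65 and 6.36 in STEE30-M, and 6.70 and 6.80 in STEE50-M. Both STEE50-M arrays lay above both controls, as for 16.1% of all genes. The difference of 0.43 (standard error 0.22) missed the threshold, and its adjusted p was 0.952 in limma. The study also placed its own array value outside its limits, and it reported a significant rise of this transcript by qPCR after adding replicates. Of 28 complex IV genes 2 were higher and 1 was lower. The higher genes were muscle isoforms, *Cox6a2* at 8.48 and 8.51 against 9.07 and 9.48 and *Cox8b* at 5.61 and 5.81 against 6.02 and 6.78, and neither passed without STEE50-M replicate 2 (log2 difference 0.58 and 0.31). Complexes II and III had 0 higher and 1 lower of 21, and SLC25 carriers and uncoupling proteins 1 and 2 of 50. Of 27 PGC-1 coactivators and mitochondrial genome factors 2 were higher and 0 lower. The called share was 10.7% for complex IV, 7.41% for the last list and 6.0% for the carriers, beside 5.0% of all genes. *Mterf4*, a factor of mitochondrial ribosome assembly, was the higher genome factor above background. It was at 6.67 and 6.71 in Ctrl-M, 7.29 and 7.37 in STEE30-M, and 7.20 and 7.61 in STEE50-M. *Tfam*, which packages mitochondrial DNA, was at 9.22 and 9.20 against 8.60 and 8.86, which did not pass. Of 23 genes of mitochondrial dynamics 0 were higher and 2 were lower, the fusion gene *Mfn1* at 11.32 and 11.58 against 10.75 and 11.07 and *Mtfr2*, a fission regulator, at 6.55 and 6.83 against 6.14 and 5.91.

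In lipid metabolism, many calls fell on dim probe sets, as over all genes. Of all 1057 called genes, 275 higher and 361 lower ones were not above background. Fatty acid and triglyceride synthesis and storage had 1 higher and 1 lower gene of 32. Of 25 genes of fatty acid uptake and binding, 1 was higher and 4 were lower, and of these only *Fabp5*, a fatty acid binding protein gene, was above background, at 8.33 and 8.29 in Ctrl-M and 7.98 and 7.10 in STEE50-M. *Acox2* and *Mlycd* were higher and *Cpt1b*, which was not above background, lower among 32 genes of fatty acid oxidation. *Mlycd*, whose enzyme removes malonyl-CoA, was at 6.03 and 6.08 in Ctrl-M, 6.80 and 6.76 in STEE30-M, and 6.68 and 6.43 in STEE50-M. None of 25 genes of cholesterol synthesis and uptake passed, 5 had a positive difference, and the median was -0.21. *Insig1*, a sterol sensor gene, was at 14.02 and 13.88 against 13.37 and 13.76. The lowest signal of the 6 arrays was in STEE50-M replicate 1 for 15 of these 25 genes and in STEE50-M replicate 2 for 1. *Prkag3*, the muscle subunit of AMPK, was at 8.31 and 8.69 in Ctrl-M and 9.05 and 9.18 in STEE50-M.

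Secreted factors above background went both ways. *Hgf*, the growth factor that wakes satellite cells, was at 11.17 and 11.46 in Ctrl-M, 11.48 and 11.27 in STEE30-M, and 12.43 and 11.72 in STEE50-M. *Fgf21*, a stress-induced hormone gene, was at 5.60 and 5.36 against 5.85 and 6.53. *Il15*, a myokine gene, was lower, at 6.74 and 6.36 against 5.84 and 5.97, while *Il18*, an inflammasome product, was higher, at 7.74 and 7.81 against 8.69 and 8.34. The chemokine gene *Ccl7* was at 7.48 and 6.96 in Ctrl-M, 7.44 and 7.47 in STEE30-M, and 8.10 and 7.98 in STEE50-M. Of 43 interleukins 1 was higher and 3 were lower, of 39 interleukin receptors 3 and 1, and of 41 TNF ligands and receptors 0 and 4. Above background these were only *Il18*, *Il15* and the TNF ligand *Tnfsf14*, at 7.09 and 6.50 against 5.82 and 6.29. *Tnf* itself was at 3.65 and 4.13 against 3.27 and 3.28, under background in every array. Complement had 1 higher and 4 lower of 39. In the NF-kB list *Bcl3* was higher, at 5.41 and 5.09 against 5.83 and 5.75, and *Rel* lower, at 9.42 and 9.68 against 9.04 and 9.06. The Ctrl-M signals of *Bcl3* were close to or under background.

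Membrane transport genes gave 5 higher and 4 lower of 119 voltage-gated and related channels (median -0.03). Those above background included *Kcnn3*, a calcium-activated potassium channel, at 6.28 and 6.00 against 7.19 and 6.89, *Cacna1c*, a calcium channel, at 5.90 and 6.04 against 6.48 and 6.60, and *Cacnb1*. Of 56 amino acid transporters 2 were higher and 2 lower. *Slc7a8*, an exchanger of neutral amino acids, was at 5.47 and 6.09 in Ctrl-M and 4.83 and 5.01 in STEE50-M, where both signals were under background. *Slc1a3* was the only higher gene of that list above background. *Apaf1*, the core of the apoptosome, was the single call among 35 apoptosis genes, at 9.46 and 8.99 against 8.44 and 8.37. Of all 64 lists, 14 had no member called, among them the NRF2 antioxidant response (0 of 35), targets of the aryl hydrocarbon receptor (0 of 9), the circadian clock (0 of 22), MAPK cascade genes (0 of 57), the proteasome (0 of 44) and cytosolic ribosomal proteins (0 of 65). Over all genes 5.0% were called, so a short list can hold none at that share alone. A share above it was found in 37 of the 64 lists. The 38 genes that the study drew in its own heat maps held 8 higher, 12 lower and 18 that did not pass here. Only 9 of the 38 were above background. That list was chosen on these arrays and is no independent evidence.

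Set against the lower dose, 2.24% of genes were higher in STEE50-M than in STEE30-M and 2.34% were lower by the same thresholds, and the lowest adjusted p in limma was 0.997. The STEE50-M arrays are in both comparisons, so genes ranked on them would tend to stand apart here too. *Slc1a3* differed from STEE30-M by 1.74 (standard error 0.30), *Gm7325* by 1.00 (standard error 0.22) and *Pde4b* by 0.92 (standard error 0.23). *Car8* differed by -0.88 (standard error 0.21) and *Col12a1* by -0.81 (standard error 0.27). For *Pigc* the difference between doses was -0.13 (standard error 0.20), for *Olfr1044* -0.02 (standard error 0.22) and for *Ank3* 0.33 (standard error 0.23), and none of these passed the thresholds. Against the shared Ctrl-M arrays, STEE30-M stood at -0.69 for *Pigc*, 0.88 for *Olfr1044* and 0.65 for *Ank3*, and at -0.09 for *Slc1a3* and -0.02 for *Gm7325*.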

How the data were processed

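RNA of C2C12 myotubes was hybridised to 6 Clariom S Mouse arrays, 2 for each group named in the labels. Per the file headers and the labels, the authors ran SST-RMA on all 6 arrays in Expression Console 1.4.1.46 and deposited the log2 signals, with 2 decimals. The series value table held the same values (173076 of 173076 equal). The authors' deposited table of log2 group averages served only for gene symbols; it spans a narrower scale (SD over probe sets 2.23 against 3.39 for Ctrl-M), so fold changes here are on the scale of the deposited arrays. Sheets of the authors' own comparisons hold fold changes and p-values and were not used.

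After 6640 control rows were left out, 3 group means were fitted to 22206 probe sets with limma 3.58.1 in R 4.3.3 (lmFit, eBayes, prior degrees of freedom 5.75, residual degrees of freedom 3). A call needed p under 0.05 before adjustment and at least a 1.2-fold linear change. The methods word the latter as a log2 change; it was read as linear, as folds are written in the authors' table. The Benjamini-Hochberg adjustment took in every probe set tested. The number of arrays limits the precision, and an exact test of 2 against 2 arrays cannot go below p = 0.333. The script was tested on simulated data. Of 22206 probe sets, 21367 carry 1 symbol; the brightest stands for a gene, and several probe sets of a gene may differ. Named genes were, above background and with groups that do not overlap, the 15 higher and 15 lower with the largest moderated t; up to 4 members of each of 64 lists with the smallest p; and *Ppargc1a*. Called list members beyond these 4, *Tmem8c*, *Myog* and *Cd68* were added after their values were seen. The genes, lists and thresholds were chosen with earlier results of these data known. Gene positions and promoter windows are RefSeq's for GRCm38. Alternatives were an unmoderated test, a variance prior following the signal, quantile normalization, only probe sets above background, only the 4 arrays compared, a fold of at least 1.5, the replicate number as a block, all probe sets of a symbol, and leaving out each array. A few genes that the rule names are not reported here.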

Additional observations from a re-analysis of the deposited data

How the results depend on the processing

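The comparison of STEE50-M with Ctrl-M gave 1121 probe sets past the thresholds. With only probe sets above background it gave 600, fewer because fewer were tested, with 320 higher and 280 lower against 523 and 598. Leaving out an array gave 658 to 1331, the lowest without Ctrl-M replicate 1. Leaving out either STEE30-M array gave the same count as fitting the 4 arrays alone, since the lone array adds no residual degree of freedom. The comparison with STEE30-M gave 1023 probe sets, 472 with only those above background and 821 to 1579 with an array left out, the highest without STEE30-M replicate 2. With the replicate number as a block the counts were 1157 and 1090. Deviations of same-numbered arrays correlated at -0.01 to 0.06 over all probe sets, so the numbers are not taken to pair the arrays. The sarcomere and coupling lists nevertheless had a higher mean in replicate 2 than in replicate 1 of each group. No setting gave an adjusted p under 0.05 in limma for either comparison, while 843 and 792 probe sets passed in the unmoderated test at an unadjusted p. Where 1 array of a group was left, its spread was taken from the other groups.

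Of 154 called genes among the named genes and lists, 80 still passed in the unmoderated test, 65 and 72 without Ctrl-M replicate 1 and replicate 2, and 81 without either STEE50-M array, and 0 reversed in any setting. Of the 15 higher and 15 lower genes with the largest moderated t, 28 to 30 passed in each. Where the groups do not overlap, a direction kept with an array left out is fixed beforehand, and choosing genes by a large t favours passing. With 2 arrays a group the difference of a typical gene has a standard error of 0.24, and signals at or under 5.32 cannot be told from background.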
